A study of Mus musculus with 6 samples.

Results

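The genes described here are 40 mouse genes of the lysosome, 33 for its enzymes and membrane proteins and 7 for the subunits of the proton pump that acidifies it, out of 21911 protein-coding genes in the GENCODE annotation. They were chosen by name and role, and their promoters were read from H3K4me3 ChIP-Seq peaks that lay within 1 kb of any annotated transcript start. H3K4me3, histone H3 trimethylated at lysine 4, sits around the starts of active and poised genes. STHdh cells, conditionally immortalised mouse striatal progenitor lines, were kept in serum-free medium for 24 hours. Q7SST was the wild type line with vehicle (STHdh7 in the labels, STHdhQ7 in the study), and Q111SST was the knock-in line homozygous for mutant huntingtin with vehicle. The other 4 conditions were the mutant line with cyproheptadine, loxapine, diacylglycerol kinase inhibitor II (DKI) or meclizine, each at 10 uM, chosen by the study among compounds that protected the mutant cells from serum withdrawal. Each genotype was represented by 1 line, so genotype and cell line cannot be told apart. There was 1 peak list for each condition, with no replicate list, so the differences below describe these lists and no test was made.

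The lysosome is the acidic compartment in which cells break down proteins, glycans and lipids that arrive by endocytosis and autophagy. Its proton pump, the V-ATPase, has a cytosolic ring of V1 subunits that hydrolyses ATP and a V0 part in the membrane that moves protons. Cathepsins are its proteases, and inherited loss of many of its enzymes gives storage diseases that damage neurons. Many lysosomal promoters carry an E-box with flanking bases, known as the CLEAR element, to which the transcription factor TFEB binds.

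The 6 lists held between 30758 peaks with DKI and 45564 with loxapine, and no read totals were used, so the sequencing depth of the lists is unknown. Promoter strength is the percentile of a gene's highest-scoring peak among all peaks of its list, and width is the length of that peak. As a check of the labelled cell type, 6 to 9 of 10 neural progenitor genes were marked in each list, against 0 or 1 of 10 macrophage and microglia genes and 0 of 4 genes of other tissues. The marked neural progenitor genes were weak, with median strengths of 33.5 to 47.1, below the mesenchymal genes at 48.9 to 74.7 and all marked genes at 76.3 to 83.0. Of 8 genes of striatal projection neurons, 6 were marked in Q7SST and 2 or 3 in the 5 mutant lists, and the dopamine receptor genes Drd1 and Drd2 were marked in none. Mesenchymal genes were marked at 4 or 5 of 6.

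The sequences around 6 of the genes are shown first, because they hold the E-box that lysosomal promoters are known for. RefSeq promoter windows on GRCm38, 250 bases before the start and 50 after, were at hand for 34 of the 40 genes. CACGTG was found in 13 of the 34 windows (38.2%), against 8.11% of 16515 windows of protein-coding genes and 10.1% of the windows of those marked in Q111SST. The longer TCACGTG, read on both strands, was in 11 windows (32.4%), against 4.58% of all and 6.11% of the marked. The full palindrome TCACGTGA, which also contains both shorter motifs, was in 5 windows (14.7%), against 1.29% and 1.92%. The 5 genes are given with the motif in capitals, 30 bases each, on the strand of the gene, and Lamp1 with 4 copies of CACGTG in the 73 bases before its start, a stretch chosen after its sequence was seen.
Mcoln1, chr8:3500462-3500491, plus strand: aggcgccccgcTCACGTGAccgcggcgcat
Atp6v1a, chr16:44139373-44139402, minus strand: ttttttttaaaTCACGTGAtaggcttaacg
Atp6v0d1, chr8:105566050-105566079, minus strand: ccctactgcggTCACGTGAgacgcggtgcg
Cln3, chr7:126583340-126583369, minus strand: cacgggtactgTCACGTGAcccccaacctg
Ctsd, chr7:142387908-142387937, minus strand: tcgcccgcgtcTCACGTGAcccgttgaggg
Lamp1, chr8:13159088-13159160, plus strand: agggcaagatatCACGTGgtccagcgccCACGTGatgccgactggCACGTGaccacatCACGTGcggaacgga
A peak lay over the motifs of Mcoln1, Atp6v1a and Atp6v0d1 in all 6 lists. The motif of Cln3 lay under a peak in 4 lists, all of them from mutant cells, and that of Ctsd in 2 lists, Q111SST and meclizine. With cyproheptadine the edge of the Cln3 peak, at position 126583367, lay inside the printed stretch and missed the motif by a few bases. In the remaining lists the Ctsd peak ended at positions 142387844 to 142387887, just short of the printed stretch. The Lamp1 stretch lay under a peak in 4 lists and was bare with cyproheptadine and DKI. In the annotation the motifs of Mcoln1, Cln3 and Ctsd overlap an exon of some transcript, and those of Atp6v1a and Atp6v0d1 do not.

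Lysosomal promoters were marked far more often than the average gene, and nearly to the same extent in every list. In Q7SST 36 of the 40 genes were marked (90%), against 59.9% of all protein-coding genes, and in Q111SST 37 (92.5%), against 58.4%. With cyproheptadine 36 were marked, against 55.4% of all genes. With loxapine 38 were marked (95%), against 58.1%. With DKI 36 were marked, against 55.8%, and with meclizine 38, against 58.6%. A total of 35 genes (87.5%) were marked in all 6 lists, against 53.5% of all protein-coding genes, and 2 in none, against 37%. All 11 glycosidases and sulfatases, all 5 genes of sphingolipid breakdown and all 7 proton pump subunits were marked in every list, whereas 4 of the 5 genes that were not were cathepsins. In contrast to the share marked, the strength and width of the marked promoters were close to those of other genes. Their median strength ran from the 79.0 percentile with DKI to 84.6 with loxapine, and the median over all marked genes from 76.3 to 83.0 in the same lists. Their median width ran from 1429 bp with DKI to 1791 bp in Q111SST, against 1461 and 1795 bp over all marked genes.

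**Figure D1:**
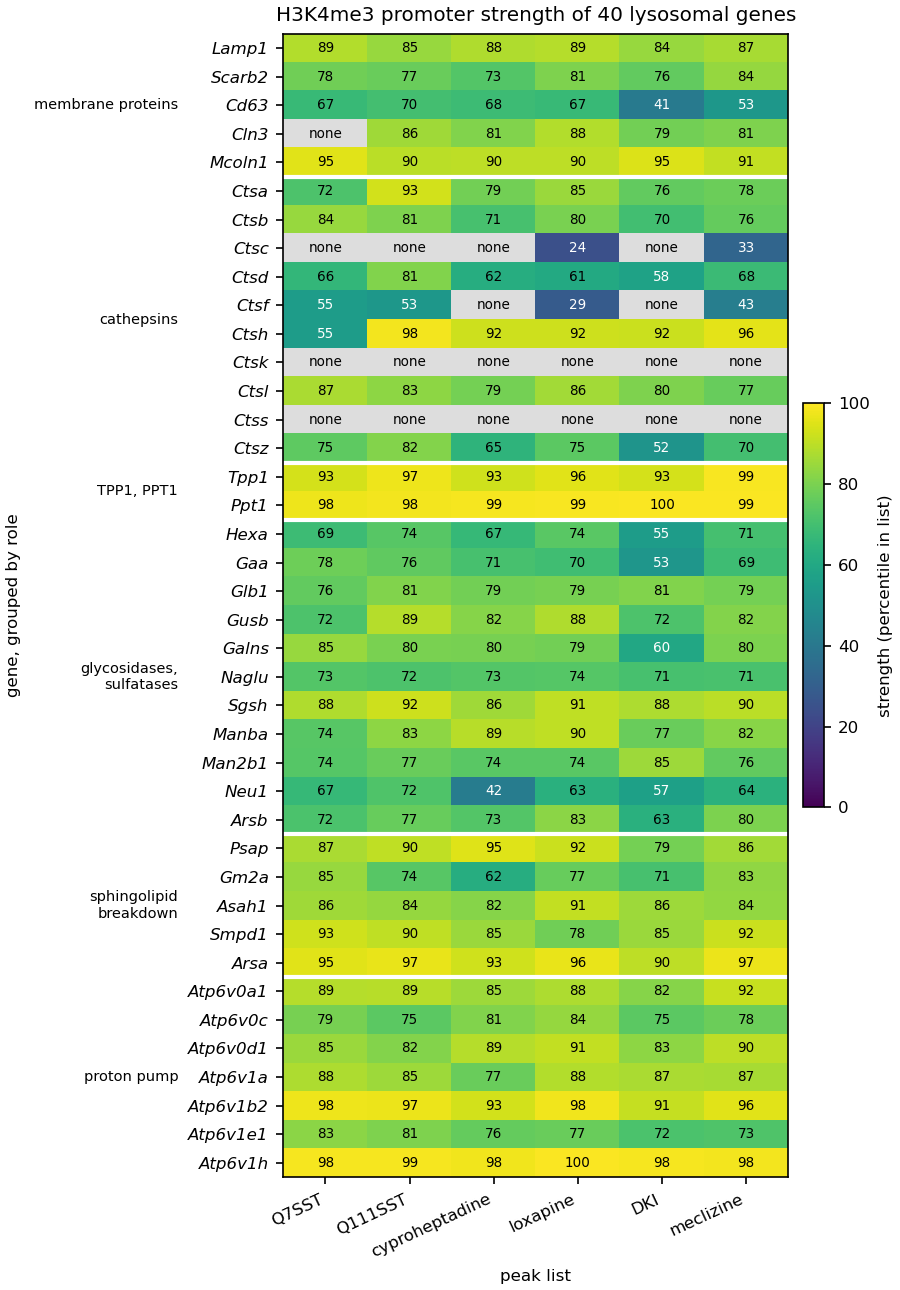
Promoter strength of the 40 lysosomal genes (rows, grouped by role) in the 6 peak lists (columns), as the percentile of the strongest peak within 1 kb of a start among all peaks of that list, with grey cells where no peak was found. Ctsk and Ctss are grey in all 6 lists, and Ppt1, Tpp1 and Atp6v1h are above the 92 percentile in every list.

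Membrane proteins of the lysosome comprised Lamp1, Scarb2, Cd63, Cln3 and Mcoln1. Cln3, whose loss causes juvenile Batten disease, was unmarked in Q7SST and marked in the 5 mutant lists. Its strength was 85.7 in Q111SST, 88.5 with loxapine, 80.9 with cyproheptadine, 78.7 with DKI and 80.6 with meclizine, with widths from 1246 to 1539 bp. In Q7SST the nearest peak lay 5589 bp from any of its 19 annotated starts. The Q111SST peak, chr7:126583110-126584648, ran from 1401 bp upstream of the principal start to 137 bp downstream, over annotated exons and UTR. The same peak lay within 1 kb of a start of Apobr, so the mark cannot be assigned to either gene alone. Among all protein-coding genes, 205 (0.936%) were unmarked in Q7SST and marked in all 5 mutant lists, and 12 of them, Cln3 included, were at or above the 78.7 percentile in each mutant list. These 12 were counted after the values of Cln3 were seen.

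Lamp1, the most abundant protein of the lysosomal membrane and a common marker of the organelle, was marked with nearly constant strength and a changing extent. Its strength was 88.6 in Q7SST, 84.6 in Q111SST, 89.0 with loxapine, 88.2 with cyproheptadine, 84.4 with DKI and 87.0 with meclizine. Its peak in Q111SST, chr8:13158757-13161446, was 2690 bp long and covered the start from -404 to 2285 bp. The peaks in Q7SST (2388 bp), loxapine (2524 bp) and meclizine (2402 bp) also covered the start. With cyproheptadine the only peak near the start was 1414 bp long and began 674 bp downstream of it. With DKI there were 2 peaks, a weak one upstream from -342 to -137 bp at the 48.9 percentile and a strong one of 1365 bp that began at 639 bp. The start itself and the 4 E-boxes printed above lay outside the called peaks in those 2 lists, while the body of the peak kept its percentile.

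Cd63, a tetraspanin of late endosomes and lysosomes, was among the weakest of the genes. Its strength was 67.2 in Q7SST, 70.2 in Q111SST, 67.4 with loxapine, 68.4 with cyproheptadine, 40.8 with DKI and 52.9 with meclizine. Its peak was 2319 bp wide in Q7SST, 1662 bp in Q111SST and 978 bp with DKI, and 1345 to 1878 bp with the other 3 compounds. In Q7SST the peak covered the principal start from -450 to 1868 bp, whereas in each of the mutant lists the strongest peak began 729 to 834 bp downstream of it. A second peak, of 198 to 402 bp and at the 12.3 to 27.4 percentile, ended 38 to 78 bp upstream of the start in Q111SST, cyproheptadine, loxapine and DKI. The DKI and meclizine lists were the low ones, and the 4 others lay between 67.2 and 70.2. Mcoln1, which encodes the calcium channel TRPML1, was strong throughout, at 95.4 in Q7SST, 89.6 in Q111SST, 90.0 with loxapine, 89.9 with cyproheptadine, 94.6 with DKI and 90.7 with meclizine. Scarb2, the receptor that carries beta-glucocerebrosidase to the lysosome, lay between 73.2 with cyproheptadine and 84.1 with meclizine.

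The 10 cathepsins ranged from promoters with no mark to some of the strongest. Ctsk, the collagen-degrading protease of osteoclasts, and Ctss, a protease of antigen-presenting cells, had no peak within 1 kb in any list, and the nearest peaks lay 56729 bp or more from the start of Ctsk and 35280 bp or more from that of Ctss. Ctsc, which activates the serine proteases of granulocytes and killer cells, was marked with loxapine (24.3 percentile, 202 bp) and with meclizine (32.6 percentile, 756 bp), and in none of the 4 other lists, including both vehicle lists. These were small, weak peaks. Genes of macrophages were nearly all bare, since Aif1 (6.1 and 4.9 percentile in Q7SST and Q111SST) and P2ry12 (35.8 with loxapine) were the only ones of 10 with a peak, and of 5 osteoclast genes only Oscar was marked, whose Q111SST peak also lay near a start of Ndufa3.

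Ctsf, a cysteine protease whose loss causes a form of neuronal ceroid lipofuscinosis, had the narrowest promoter by median width. It stood at the 55.4 percentile in Q7SST with 917 bp and at 53.1 in Q111SST with 282 bp. It was at 28.9 with loxapine with 428 bp and at 42.9 with meclizine with 380 bp. It had no peak with cyproheptadine or DKI, where the nearest peak was over 15 kb away, at 15338 and 15283 bp. Its Q7SST peak reached from -313 to 603 bp across the start, and the 3 mutant peaks began 9 to 87 bp past it.

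Of the lysosomal genes marked in both vehicle lists, Ctsh, an aminopeptidase among the cathepsins, showed the widest gap in strength between them. It stood at the 55.4 percentile in Q7SST, and at 98.3 in Q111SST, 92.3 with loxapine, 92.2 with cyproheptadine, 91.9 with DKI and 96.0 with meclizine. Deposited scores were 57 in Q7SST and 119 to 200 in the mutant lists. The Q7SST value lay below all 5 mutant values. The peaks themselves were in nearly the same place, with 950 bp in Q7SST (chr9:90054438-90055387) and 1281 bp in Q111SST (chr9:90054293-90055573), over the first exon, coding sequence and UTR. A difference of -42.9 points or lower between these 2 lists was seen in 69 of 12335 genes marked in both (0.559%).

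**Figure D2:**
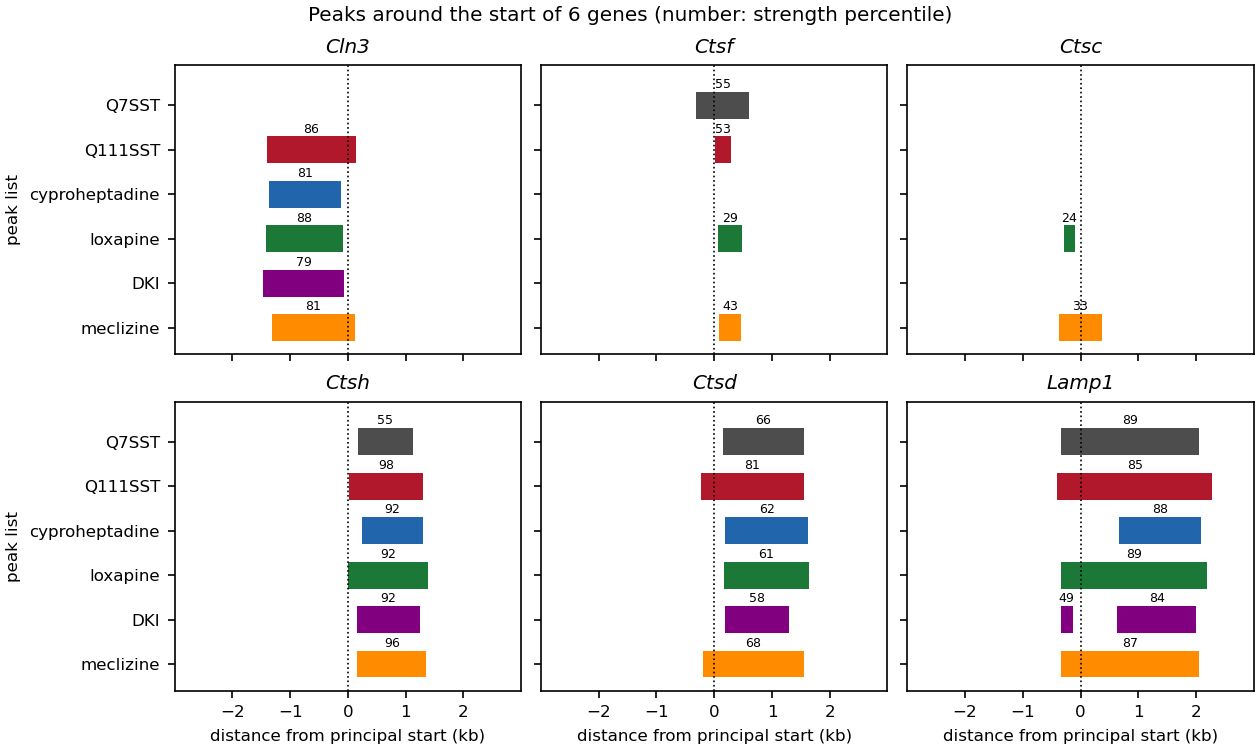
Peaks of the 6 lists (rows, 1 colour each) around the principal start of Cln3, Ctsf, Ctsc, Ctsh, Ctsd and Lamp1, with distance from the start in kb along the strand of the gene on the horizontal axis and the strength percentile above each bar. Cln3 has no bar in Q7SST, Ctsh has bars of similar place in all 6 lists but a percentile of 55.4 in Q7SST, and the Lamp1 bars with cyproheptadine and DKI leave the start uncovered.

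Ctsa, Ctsd and Ctsz were highest in Q111SST. Ctsa, the protective protein that stabilises beta-galactosidase and neuraminidase, was at 93.0 in Q111SST, 71.9 in Q7SST, 84.9 with loxapine, 78.6 with cyproheptadine, 75.8 with DKI and 77.5 with meclizine. Ctsd, the main aspartic protease, was at 81.0 in Q111SST, 66.4 in Q7SST, 60.8 with loxapine, 62.4 with cyproheptadine, 57.5 with DKI and 68.3 with meclizine. Ctsz, a carboxypeptidase, was at 81.6 in Q111SST, 75.3 in Q7SST, 74.8 with loxapine, 65.2 with cyproheptadine, 51.7 with DKI and 70.3 with meclizine. The Ctsz peak was 893 to 1238 bp wide. In each of these 3 genes the other 5 lists lay below Q111SST. As every comparison below uses that 1 list, a high value in it lowers all 5 differences together. The Ctsd peak covered the principal start in Q111SST and meclizine and began 151 to 194 bp past it in the other 4 lists, and its width was 1782 bp in Q111SST and 1118 bp with DKI. The peak of Ctsa was shared with a start of Neurl2. Ctsb, the most abundant cysteine protease in many cells, stood at 84.4, 80.7, 70.9, 79.7, 69.8 and 76.2 in Q7SST, Q111SST, cyproheptadine, loxapine, DKI and meclizine. Its peak was 1491 bp wide in Q7SST and between 2073 and 2294 bp in the mutant lists. A width ratio of Q7SST to Q111SST as low as its 0.65 was seen in 795 of 12335 genes marked in both (6.45%). Ctsl lay between 76.9 and 87.3.

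Ppt1 and Tpp1, soluble enzymes that are lost in childhood ceroid lipofuscinoses, were among the 5 strongest promoters. Ppt1, which removes palmitate from proteins, was at 97.5 in Q7SST, 98.4 in Q111SST, 99.0 with loxapine, 98.8 with cyproheptadine, 99.5 with DKI and 99.4 with meclizine, with widths of 1157 to 1419 bp. Tpp1, a tripeptidase, was at 93.4, 97.4, 92.7, 95.7, 93.4 and 99.0 in Q7SST, Q111SST, cyproheptadine, loxapine, DKI and meclizine. Neither was among the widest. The 4 widest by median, Hexa, Asah1, Lamp1 and Ctsb, had median strengths that were all under the 90 percentile.

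Glycosidases and sulfatases were marked in every list, with median strengths over the 11 genes of 73.8 in Q7SST, 77.3 in Q111SST, 78.7 with loxapine, 74.3 with cyproheptadine, 71.0 with DKI and 79.2 with meclizine. Neu1, the sialidase of the lysosome, was the weakest of them by median over the lists, at 66.8, 72.4, 41.8, 63.3, 56.8 and 64.0 in Q7SST, Q111SST, cyproheptadine, loxapine, DKI and meclizine, and cyproheptadine was its low list. Hexa, the alpha subunit of beta-hexosaminidase, had the widest promoter of the 40 genes by median, with 2446 to 2655 bp in the 6 lists. Its strength was 68.6, 73.9, 67.1, 74.4, 55.1 and 70.7 in Q7SST, Q111SST, cyproheptadine, loxapine, DKI and meclizine, with DKI low. Its Q111SST peak also lay near a start of Tmem202. Man2b1, the lysosomal alpha-mannosidase, had 1 of the 4 narrowest promoters, and its strongest peak was 594 bp wide with DKI and 941 to 1087 bp in the other lists. Further peaks lay near it, so that any peak within 2 kb of the principal start covered 824 bp with DKI and 1027 to 1267 bp in the other lists. It was also strongest with DKI, at 85.2, against 73.8, 77.3, 74.3, 74.4 and 75.8 in Q7SST, Q111SST, cyproheptadine, loxapine and meclizine. Gusb, beta-glucuronidase, was at 71.9 in Q7SST and 72.0 with DKI, and between 81.5 and 88.9 in the 4 others. Naglu, of heparan sulfate breakdown, varied little, from 71.0 to 73.6.

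Among enzymes and activators of sphingolipid breakdown, Arsa, the sulfatase that is lost in metachromatic leukodystrophy, was at 95.4, 96.6, 92.7, 96.5, 90.2 and 96.9 in Q7SST, Q111SST, cyproheptadine, loxapine, DKI and meclizine. Psap, the precursor of the saposins, had peaks of 2651 bp in Q111SST and 2545 bp with meclizine, and of 1854, 1631, 1807 and 1675 bp in Q7SST, cyproheptadine, loxapine and DKI. Its strength ran from 79.2 with DKI to 95.2 with cyproheptadine. Gm2a, the activator that presents ganglioside GM2 to beta-hexosaminidase, was 2357 bp wide in Q111SST and 2187 bp with loxapine. It was 1847 bp wide in Q7SST, 1279 bp with cyproheptadine, 1433 bp with DKI and 1435 bp with meclizine. Its strength was 73.9 in Q111SST, 84.7 in Q7SST, 76.8 with loxapine, 62.4 with cyproheptadine, 71.0 with DKI and 83.3 with meclizine. Asah1, acid ceramidase, had the widest strongest peak of the 40 genes in any list, 2990 bp in Q7SST, against 2459, 2227, 2467, 1921 and 2415 bp in Q111SST, cyproheptadine, loxapine, DKI and meclizine. Its strength was 85.9 in Q7SST, and 84.0, 81.8, 90.8, 85.5 and 83.6 in those lists. Smpd1, acid sphingomyelinase, was lowest with loxapine, at 78.3 against 84.8 to 92.6.

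Proton pump subunits had group medians between 83.1 with DKI and 90.1 with meclizine, against 76.3 and 80.3 over all marked genes in those lists. In Q7SST, Q111SST and loxapine the group median was the value of Atp6v1a, at 87.8, 85.4 and 88.5. That value comes from a peak away from its principal start, and these medians would be lower with the weaker peak over that start. In Q111SST, Atp6v0c, Atp6v0d1 and Atp6v1e1 lay below the median of 82.6 over all marked genes. Atp6v1h, a regulatory subunit of V1, was at 98.5, 98.8, 97.8, 99.6, 98.5 and 98.3 in Q7SST, Q111SST, cyproheptadine, loxapine, DKI and meclizine. Atp6v1b2, an ATP-binding subunit of the V1 ring, was at 97.5, 96.9, 93.2, 97.7, 91.2 and 95.7, and its Q111SST peak also lay near a start of Slc18a1. Atp6v1a, the catalytic subunit, was at 87.8, 85.4, 77.1, 88.5, 87.2 and 87.0, with cyproheptadine low. These values come from a peak within 1 kb of another annotated start of the gene and of a start of Naa50, 1305 to 1474 bp upstream of the principal start. The width of that peak was 1528, 1521, 1127, 1536, 948 and 1280 bp, narrowest with DKI. A weaker peak covered the principal start of Atp6v1a in all 6 lists, at 63.5, 56.9, 53.3, 70.0, 69.2 and 62.6, with widths of 1779, 3174, 1809, 1655, 1634 and 1703 bp. In that peak loxapine and DKI were the high lists and Q111SST was the widest. Atp6v1a was the only one of the 40 genes whose scored peak lay over 1 kb from its principal start. Atp6v1e1, a V1 stalk subunit, was at 82.7, 80.7, 76.5, 77.2, 71.5 and 72.6, highest in the vehicle lists. Among V0 subunits, Atp6v0d1 was at 85.0 in Q7SST and 81.6 in Q111SST, and at 88.9, 90.8, 83.1 and 90.1 with cyproheptadine, loxapine, DKI and meclizine. Its peak was 2513 bp wide in Q111SST and 1673 to 2022 bp in the other 5 lists, so that it was lowest in strength and widest in extent in the same list. Atp6v0c, the proton-carrying ring subunit, was at 79.4, 74.7, 80.9, 84.3, 74.8 and 77.5, and its peak was widest with cyproheptadine, at 2363 bp.

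Wild-type cells were then compared with mutant cells under vehicle. Of the 36 genes marked in both lists, 3 were at least 5 points higher in Q7SST, against 17.8% of all genes marked in both, and 9 at least 5 points lower, against 27.4%. The median difference was -0.4 points, and -1.0 over all genes. The lowest differences were in Ctsh, Ctsa, Gusb and Ctsd, at -42.9, -21.2, -17.0 and -14.6 points. The highest was in Gm2a, at 10.8 points. In width, 2 genes were at least 25% wider in Q7SST, against 9.83% of all genes, and 9 were at least 20% narrower, against 13.3%. The median width ratio was 0.913, against 0.973 over all genes, and 24 of 36 genes lay below that all-gene median. Ctsb was narrowest relative to Q111SST, with a ratio of 0.65, and Ctsf widest, with 3.25. No gene was marked in Q7SST only, against 8.64% of the genes unmarked in Q111SST, and Cln3 alone was marked in Q111SST only, against 3.56% of those marked there. When strength was ranked among marked promoters in place of all peaks, 15 genes were higher, against 35.1% of all genes, and 10 lower, against 29.2%. The median difference was then 1.6 points, against 0.7 over all genes, so its sign depended on that choice in both. With peaks under the pooled median score dropped, 16 were higher, against 33.2%, and the median was 1.3, against 0.3.

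The compound lists were compared with the mutant vehicle list, and their medians lay close to those of all genes. With cyproheptadine the median difference was -4.0 points, against -3.7 over all genes. At least 5 points higher were 3 genes, against 9.68% of all genes, and at least 5 points lower were 12 of 36, against 44.1%. Neu1 had the lowest difference, -30.5 points, matched or passed by 276 of 12061 genes (2.29%), and Atp6v0d1 the highest, 7.2. The median width ratio was 0.897, against 0.887 over all genes. At least 25% wider were 0 genes, against 1.9%, and at least 20% narrower 7, against 29.3%. Lamp1, at 0.53, and Gm2a, at 0.54, had the lowest ratios, and Atp6v0c the highest, 1.22. No gene was marked with cyproheptadine only, against 0.735%, and Ctsf was marked in Q111SST only, against 5.7%. Ranked among promoters, 8 were higher, against 25.4% of all genes, and 15 lower, against 41.6%. The median moved to -10.7 points, against -7.7 over all genes, when peaks under the pooled median score were dropped, with 25 of 35 genes lower, against 58.1%. With lists of equal size it was -0.9, against -1.0.

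With loxapine, a tricyclic antipsychotic, the medians were nearest to Q111SST for peaks within 1 kb of a start, ranked among all peaks of the lists as deposited. For peaks over the start the median was -0.5 with loxapine and -0.4 in Q7SST. The median difference in strength was -0.1 points, against -0.4 over all genes, with 5 of 37 genes at least 5 points higher, against 18.6%, and 8 lower, against 22.4%. The lowest differences were in Ctsf, at -24.2 points, and Ctsd, at -20.2. The highest were in Atp6v0c, at 9.6 points, and Atp6v0d1, at 9.2. In width the median ratio was 0.985, against 0.987. At least 25% wider were 2 genes, Ctsf and Arsb, against 5.58% of all genes, and narrower 1, Psap with 0.68, against 13.7%. Ctsc was marked with loxapine only, against 2.43% of the genes unmarked in Q111SST, and 0 genes were marked in Q111SST only, against 2.12%. Ranked among promoters, 11 were higher, against 28.2%, and 12 lower, against 31.9%. With equal lists the median was -2.7 points, against -2.6 over all genes, and those of Q7SST, meclizine and cyproheptadine were nearer, at -0.1, -0.6 and -0.9. With peaks under the pooled median score dropped, the loxapine median was 0.7, against 0.4 over all genes.

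With DKI the median differences were the lowest of the 5 comparisons, in these genes and in all genes, when strength was ranked among all peaks of the lists as deposited. With lists of equal size the median of these genes was -2.8 points with DKI and -2.7 with loxapine, against -1.8 and -2.6 over all genes. With peaks under the pooled median score dropped, the DKI median was -10.1, against -8.8 over all genes, and that of cyproheptadine was lower, at -10.7. Ranked among promoters it was -4.5, against -2.5 over all genes, where cyproheptadine was at -2.6. As deposited, the median difference was -5.7 points, against -6.6 over all genes. At least 5 points lower were 20 of 36 genes, against 55.9%, and at least 5 points higher was 1, Man2b1 with 7.9 points, against 8.49%. Ctsz stood at a difference of -29.9 points, Cd63 at -29.4, Ctsd at -23.5 and Gaa, acid alpha-glucosidase, at -22.9. A difference as low as that of Ctsz was seen in 578 of 12158 genes (4.75%). The median width ratio was 0.840, against 0.833 over all genes, with 0 genes wider, against 2.32%, and 14 narrower, against 40.7%. Lamp1 had the lowest ratio, 0.51, followed by Man2b1 with 0.55 and Cd63 with 0.59, and Ctsa the highest, 1.07. No gene was marked with DKI only, against 0.647%, and Ctsf was marked in Q111SST only, against 4.94%. Ranked among promoters, 12 were higher, against 27.9%, and 17 lower, against 42.1%. With equal lists 10 were higher, against 21.8%, and 13 lower, against 37.5%.

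Meclizine, a piperazine antihistamine, gave a median difference of -1.2 points, against -1.5 over all genes. At least 5 points higher were 3 of 37 genes, Scarb2, Gm2a and Atp6v0d1, against 10.6%, and at least 5 points lower were 11, against 27.8%. The differences were lowest in Cd63, at -17.3 points, and Ctsa, at -15.5, and highest in Gm2a, at 9.3. The median width ratio was 0.982, against 0.942 over all genes, and 26 of 37 genes lay above that all-gene median. At least 25% wider was 1, Ctsf with 1.35, against 6.1%, and narrower were 2, Gm2a with 0.61 and Atp6v0d1 with 0.75, against 12.8%. Neu1 and Gaa were each 1.23-fold wider. Ctsc was marked with meclizine only, against 2.46%, and 0 genes were marked in Q111SST only, against 1.37%. The median strength difference turned to 1.3 points when ranked among promoters, against -0.1 over all genes, with 12 genes higher, against 26.6%, and 12 lower, against 27.3%. It turned to 2.3 points when peaks under the pooled median score were dropped, against 0.9, with 12 of 36 genes higher, against 32.7%.

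**Figure D3:**
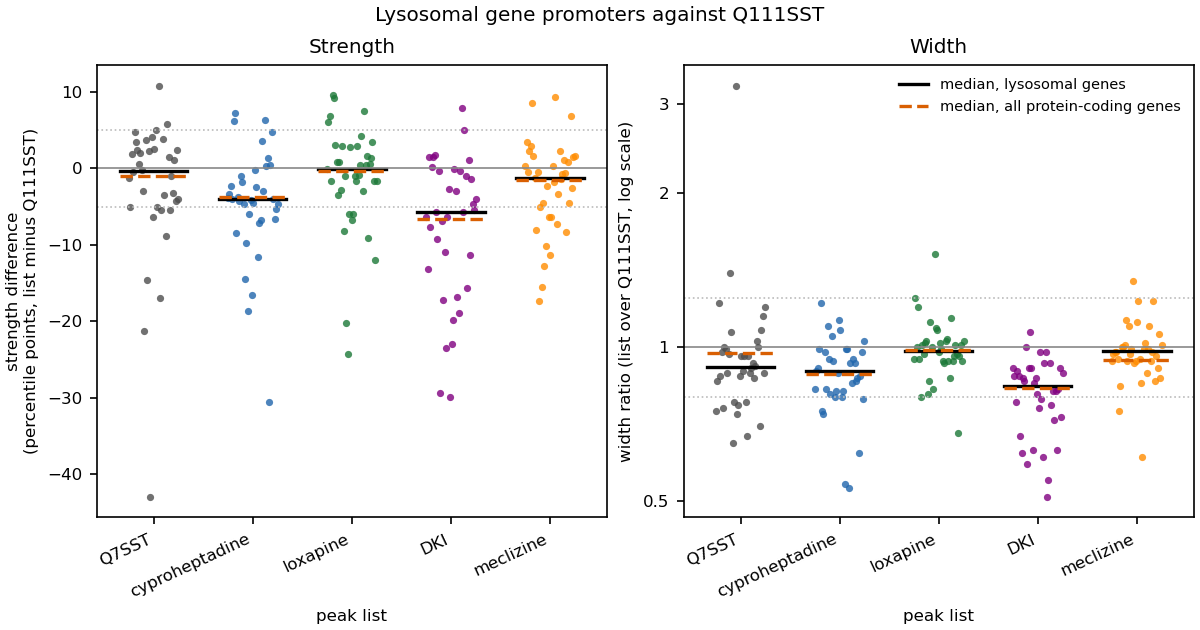
Difference in promoter strength (left, percentile points) and ratio of peak width (right, log scale) between each list and Q111SST for the lysosomal genes marked in both lists (points), with the median of these genes (solid line), the median of all protein-coding genes (dashed line) and the limits of 5 points, 25% wider and 20% narrower (dotted). With DKI both medians lie lowest, at -5.7 and -6.6 points, and the point for Ctsh in Q7SST stands at -42.9.

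Some genes lay under Q111SST by at least 5 points with each of the 4 compounds, namely Ctsa, Ctsd, Ctsz and Neu1, whose values are given above. They were 4 of the 36 marked in Q111SST and all 4 compound lists (11.1%), against 974 of 11918 protein-coding genes (8.17%). The 4 differences share the Q111SST value and are not separate observations. Atp6v0d1 was at least 5 points higher with cyproheptadine, loxapine and meclizine, and 1.5 points higher with DKI. The proton pump subunits other than Atp6v0c and Atp6v0d1 were not 5 points higher with any compound by their strongest peak, whereas the weaker peak over the start of Atp6v1a was so with loxapine, DKI and meclizine. Of the 4 compounds, cyproheptadine and loxapine are tricyclic, and meclizine is a piperazine. All were given at the same dose for the same time, and with 1 list each no difference between compounds could be set against replicate error.

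Peaks of the lysosomal genes leaned further into the gene than those of other genes. Base pairs under any peak were counted in the 2 kb upstream and the 2 kb downstream of the principal start. The downstream side exceeded the upstream side in 33 of 36 marked genes in Q7SST (91.7%), against 71.3% of all marked genes, and in 33 of 37 in Q111SST (89.2%), against 72.9%. In the compound lists the shares were 91.7%, 86.8%, 88.9% and 89.5% with cyproheptadine, loxapine, DKI and meclizine, against 72.3%, 72.3%, 69.6% and 71.8%. Median coverage in Q111SST was 501 bp upstream and 1375 bp downstream, against 545 and 1128 bp over all genes. At 800 bp upstream, 10.8% of the marked lysosomal genes had a peak in Q111SST, against 31.1% of all marked genes. Cln3 was an exception to the lean, with its peak mostly upstream of the principal start. In Q111SST 8 of the 37 peaks also lay within 1 kb of a start of another protein-coding gene. The share over all marked genes was not counted, so this cannot be called high or low.

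**Figure D4:**
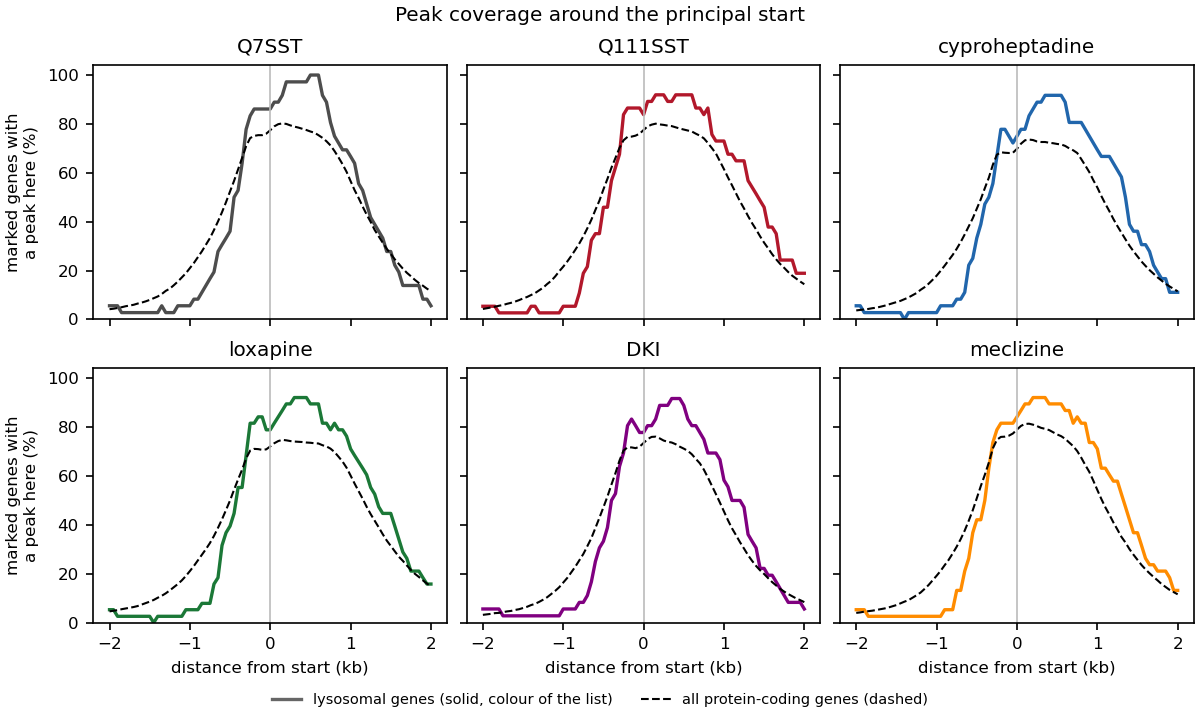
Share of marked genes (vertical axis, percent) with a peak at each distance from the principal start (horizontal axis, kb, upstream to the left) for the lysosomal genes (solid) and all protein-coding genes (dashed), 1 panel per list. In Q111SST the solid line is below the dashed one at 800 bp upstream, with 10.8% against 31.1%, and above it at 500 bp downstream, with 91.9% against 77.7%. In Q7SST it is below again at 2000 bp downstream, with 5.6% against 11.6%.

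CpG content was read in the same RefSeq windows, since H3K4me3 is known to lie over CpG-rich promoters. The observed over expected CpG ratio had a median of 0.64 over the 34 lysosomal windows, against 0.60 over all protein-coding genes, 0.78 over those marked in Q111SST and 0.21 over those not marked. The 2 genes never marked stood at 0.16 for Ctsk and 0.34 for Ctss. A low ratio was also found at marked promoters. Tpp1, with 0.11, had the lowest ratio of all 34 windows, and was above the 90 percentile in every list. Arsa, also above it in every list, had 0.27, but its window lay under no peak, the nearest of which was 224 to 437 bp away. The 120 bases before the RefSeq start are shown for the 2 genes that were never marked, for Ctsc, which was marked in 2 lists, and for Ppt1, the strongest by median. CpG pairs are in capitals, and the 4 were chosen after their values were seen.
Ctsk, chr3:95499090-95499209, plus strand, 0 CpG: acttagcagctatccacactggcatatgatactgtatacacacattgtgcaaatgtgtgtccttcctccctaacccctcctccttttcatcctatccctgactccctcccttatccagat
Ctss, chr3:95526666-95526785, plus strand, 2 CpG: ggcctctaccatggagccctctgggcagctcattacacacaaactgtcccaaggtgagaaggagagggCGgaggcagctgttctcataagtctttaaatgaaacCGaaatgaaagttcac
Ctsc, chr7:88277965-88278084, plus strand, 7 CpG: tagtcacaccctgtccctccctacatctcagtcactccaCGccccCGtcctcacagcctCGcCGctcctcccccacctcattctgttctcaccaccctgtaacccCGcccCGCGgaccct
Ppt1, chr4:122836107-122836226, plus strand, 4 CpG: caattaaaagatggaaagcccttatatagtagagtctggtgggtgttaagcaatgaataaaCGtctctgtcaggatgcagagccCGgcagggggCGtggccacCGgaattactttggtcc
In these stretches Ppt1 held fewer CpG pairs than Ctsc, whereas over the whole 300-base windows the order turned round, with 13 pairs and a ratio of 0.77 in Ppt1 against 12 and 0.51 in Ctsc. A peak lay over the whole Ppt1 stretch in 6 lists and over the whole Ctsc stretch in 1, meclizine. The 13 genes with CACGTG were likewise spread over the strength scale, with medians over the lists from 48.0 in Ctsf to 95.9 in Arsa, whose window lay outside its peak as given above. Of the Ctsf window, 300 bases lay under a peak in Q7SST, 76 in Q111SST, 26 with loxapine and 0 with meclizine.

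Other genes of the lysosome were then counted. Of 88 further genes for membrane proteins, hydrolases, sorting factors, regulators and pump subunits, 74 (84.1%) were marked in all 6 lists, against 53.5% of all protein-coding genes, and 9 in none, against 37%. Among them were 18 further proton pump genes, of which 61.1% to 72.2% were marked in a list, with median strengths of 68.2 to 78.6, against 100% and 83.1 to 90.1 for the 7 subunits above. The medians of the 7 include Atp6v1a by a peak away from its principal start, as given above. Over all protein-coding genes the share marked was 55.4% to 59.9% and the median 76.3 to 83.0. All 10 regulators were marked in every list, among them Tfeb, at 60.2 in Q111SST and 51.6 to 63.0 in the others, and Mitf, at 93.0 to 97.9. CACGTG was in 11 of the 67 windows at hand for these 88 genes (16.4%) and TCACGTGA in 7 (10.4%), against 8.11% and 1.29% of all windows.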

How the data were processed

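STHdh cells were profiled by H3K4me3 ChIP-Seq in 6 conditions, with 1 sample and 1 peak list each. The submitters' processing notes name Trimmomatic 0.36, Bowtie2, SAMtools 1.3, MACS2 and the build mm10. Thresholds, input control, the number of ChIP-Seq replicates and any pooling of them are not given in the sources used here. Each line deposited by the authors gives a peak's position with an integer score, whose scale is not given and whose lowest value was 10 in each list. The depth behind the lists is unknown, so no interval for counting error was given.

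Peaks were joined to transcript starts of GENCODE release M21 on GRCm38, the same build as mm10, and 0 of 21 chromosomes had a peak past its end. A gene was marked with a peak within 1 kb of any start. Strength was the percentile of its highest score in the list (ties at mid-rank), and width the length of that peak. Lists were compared with Q111SST over genes marked in both, at limits of 5 points, 25% wider and 20% narrower. The principal start is that of the best-ranked coding transcript in the annotation. Promoter sequences came from RefSeq on GRCm38.

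The 40 genes, the lists of other genes and the limits were chosen with earlier results of these data known. Strength in every list is given for genes unmarked in any list, the 5 highest and lowest by median strength, the 4 widest and narrowest, the largest rise and fall of each comparison, and Lamp1, Ctsb, Ctsd and Atp6v1a, with some widths as ranges. Other genes were named after their values were seen. The functions were tested on simulated peaks, where 1203 of 1203 marked genes among 2000 were recovered. Python 3.11.15, numpy 2.4.6, pandas 2.3.3 and matplotlib 3.10.9 were used. Alternatives were another score threshold, windows of 0 or 5 kb, lists of equal size, merged peaks, starts of coding transcripts, the longest peak, ranks among promoters and a reciprocal overlap of 50%.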

Additional observations from a re-analysis of the deposited data

How the results depend on the processing

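No paired analysis was possible because the conditions have a single list each. The number of marked genes kept within 1.5 times of its value in every list and under each alternative. Of the 37 promoter peaks of Q111SST, 36 were found in Q7SST, against 96.1% over all genes, and 34 at a reciprocal overlap of 50%, against 89.6%. The counts did not change with overlap in the other lists, where the share over all genes went from 94.5% to 98.6% down to 86.1% to 94.5%. Median strength was lower when peaks under the pooled median score of 47 were dropped, as fewer weak peaks were left to rank against. It was 69.0, 63.9, 57.1, 70.4, 58.0 and 67.4 in Q7SST, Q111SST, cyproheptadine, loxapine, DKI and meclizine. Over all marked genes it was then 67.3, 67.6, 61.9, 69.9, 60.7 and 68.0. The lysosomal median thus fell below that of all marked genes in Q111SST, cyproheptadine, DKI and meclizine. In the lists as deposited it lay above in each list. With lists of equal size, where weak peaks were also fewer, the lysosomal median was 77.5 in Q111SST and 76.3 with meclizine, against 78.2 and 76.1. Medians were read against the 95% order-statistic interval of the median over the lysosomal genes, which measures the spread between genes and not between samples. Median width stayed within that interval under each of these alternatives.

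The meclizine median difference reversed, to 2.3 points at the pooled median score and 1.3 when ranked among promoters. The cyproheptadine median moved to -10.7 at the pooled median score, -0.9 with equal lists and -2.1 among promoters, the DKI median to -10.1 at the pooled median score and -2.8 with equal lists, and the loxapine median to 0.7 and -2.7. The Q7SST median went to 1.3 at the pooled median score and 1.6 among promoters. Counts of genes at least 5 points higher moved at the pooled median score to 16 in Q7SST, 12 with loxapine, 5 with cyproheptadine, 3 with DKI and 12 with meclizine. With equal lists they were 9, 6, 10 and 5 in Q7SST, cyproheptadine, DKI and meclizine, and among promoters 15, 8, 11, 12 and 12 in Q7SST, cyproheptadine, loxapine, DKI and meclizine. Over all genes the shares, each list in the same order, were 33.2%, 32.3%, 15.5%, 16.6% and 32.7%, then 23.1%, 21.5%, 21.8% and 16.1%, then 35.1%, 25.4%, 28.2%, 27.9% and 26.6%. The counts were 1 in Q7SST within 5 kb, against 18.5%, and 2 with DKI for a peak over the start, against 6.96%. Counts of lower genes moved to 25 with cyproheptadine at the pooled median score, against 58.1%, and to 13 with DKI for equal lists, against 37.5%.

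In width, wider genes in Q7SST were 1 within 5 kb, against 10.6% of all genes, and 1 with merged peaks, against 9.46%. Wider genes with loxapine were 1 at the pooled median score and 1 with equal lists, against 3.8% and 4.65%, and with meclizine 0 at that score, against 4.27%. Narrower genes with loxapine were 2 for a peak over the start, 3 within 5 kb, 2 with merged peaks and 2 for the longest peak, against 8.5%, 15%, 11.8% and 13.1%, and with meclizine 4 with merged peaks, against 12.5%. Single genes reversed in Q7SST, where Galns went to -5.3 points within 5 kb and Cd63 to a width ratio of 0.24 within 5 kb and 0.82 with merged peaks, and with DKI, where Manba went to 1.4 points among promoters. The causes were not tested.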

Other observations

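Of the lysosomal genes outside the 40, those with no peak in any list were Lamp5, Cd68, Ctse, Ctsg, Acp5, Atp6v0d2, Atp6v1b1, Atp6v1e2 and Atp6v1g3. Atp6v0e2, a V0 subunit found in brain, was marked in Q7SST alone, at the 62.5 percentile with 1084 bp, and so was Ctsw, at 20.4 with 664 bp. Atp6v1c2 was at 53.9 in Q7SST, 20.6 in Q111SST and 29.0 with meclizine, and had no peak in the other 3 lists. Atp6v0a4, a V0 subunit of kidney and inner ear, was at 58.1 with loxapine, 54.9 with meclizine, 32.2 with DKI and 25.9 in Q111SST, and had none in Q7SST or with cyproheptadine. Laptm5 was at 25.9 in Q111SST, 10.4 with loxapine and 15.6 with meclizine.

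Sort1, the receptor sortilin that carries enzymes from the Golgi, had the strength 85.7 in Q7SST, 68.0 in Q111SST, 56.6 with loxapine, 33.5 with cyproheptadine, 30.9 with DKI and 47.8 with meclizine. Igf2r, the large mannose-6-phosphate receptor, was at 77.2 in Q7SST and between 90.2 and 95.9 in the mutant lists. Both were chosen after their values were seen, and neither was tested.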
